A study of Mus musculus with 4 samples.

Results

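DNA methylation was examined at Foxa1, Foxa2 and Shh, 3 genes of the floor plate of the embryonic neural tube. The data were 4 mouse libraries of reduced representation bisulfite sequencing (RRBS). Each gene was taken as a fixed window around it in the mm9 mouse genome (NCBIM37). Cytosine positions in CpG context that had at least 5 calls in every library were kept, which gave 307 positions in the windows of 629262 in the genome. They numbered 110 at Foxa1 (between chr12:58636364 and chr12:58651716), 101 at Foxa2 (chr2:147864490 to chr2:147874920) and 96 at Shh (chr5:28784649 to chr5:28791685). Neighbouring positions less than 100 bp apart were joined into runs. The windows held 30 runs, lettered along each chromosome, of which 8 had at least 10 positions, out of 15205 such runs in the genome. The 8 longer runs held 193 of the positions and were tested, and the 22 shorter runs held the other 114 and are described without a test.

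The libraries came from induced pluripotent stem cells (iPSCs), NESTIN-GFP precursors, dopaminergic neurons made from iPSCs (iPSC-DA neurons) and primary mesodiencephalic dopaminergic neurons (mdDA neurons), with 1 library for each. iPSCs, iPSC-DA neurons and mdDA neurons were Pitx3 Gfp/+, so that GFP marks cells using the promoter of Pitx3, a transcription factor gene of mdDA neurons. The iPSCs had been made from embryonic fibroblasts with retroviral reprogramming factors. The iPSC-DA neurons were sorted for PITX3-GFP after 4 weeks of differentiation on MS5 stromal cells, first with Noggin and SB431541 and later with SHH protein, FGF8 and BDNF, and the mdDA neurons were sorted for PITX3-GFP from embryos at E14.5. The precursors carried a different reporter, Nestin Gfp/+, and were collected on day 14 of differentiation. Their label calls them neurons, whereas the study's methods call them neural precursors. The files hold no RNA, so neither the identity of the cells nor the expression of the 3 genes could be checked against markers here. The study itself describes dopaminergic marker staining and dopamine secretion for its iPSC-DA neurons. From arrays it reports similar expression of Foxa1 and Foxa2 in these and in embryonic mdDA neurons. Without a second library of any cell type, no difference has a replicate check, and cell type, reporter line, cell sort and library cannot be told apart.

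The floor plate is the strip of cells along the ventral midline of the neural tube. It secretes Sonic hedgehog (SHH), a morphogen that sets ventral cell fates by its concentration, and in the midbrain its cells themselves give rise to dopaminergic neurons. FOXA1 and FOXA2 are forkhead transcription factors that can bind closed chromatin. FOXA2 activates Shh in the floor plate, and both FOXA proteins act in the specification and maintenance of midbrain dopaminergic neurons. Promoters of developmental regulators such as these commonly lie in CpG islands, which as a rule carry little DNA methylation even where the gene is silent.

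The upstream sequences of 2 Foxa2 transcription starts are shown because they were the promoters of the 3 genes that were placed on the covered positions. Both were taken from RefSeq (GRCm38.p6), printed 5′ to 3′ on the minus strand, and placed on mm9 by matching the spacing of their CpGs to the covered positions. A place was accepted only if every covered position in it lay on a CpG. By that rule all 17 covered positions around the start at 147871684 and all 14 around the start at 147872705 lay on CpGs, which is no check of the placing. Capitals mark the CpGs read in all 4 libraries, 9 of 20 in the first sequence and 3 of 6 in the second.
Foxa2 chr2:147871685-147871934: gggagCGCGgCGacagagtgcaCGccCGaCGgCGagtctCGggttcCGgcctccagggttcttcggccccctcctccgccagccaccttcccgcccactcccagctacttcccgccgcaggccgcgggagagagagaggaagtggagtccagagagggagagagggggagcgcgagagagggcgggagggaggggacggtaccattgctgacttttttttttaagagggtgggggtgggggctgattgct
Foxa2 chr2:147872706-147872955: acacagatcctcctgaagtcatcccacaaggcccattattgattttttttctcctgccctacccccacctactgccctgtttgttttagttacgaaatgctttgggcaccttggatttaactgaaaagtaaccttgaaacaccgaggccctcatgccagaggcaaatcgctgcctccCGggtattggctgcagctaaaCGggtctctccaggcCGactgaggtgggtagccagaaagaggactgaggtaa
The first sequence lies between the 2 starts, and its capitals fall within Foxa2 run F, described below. The second is the region upstream of the outer start, and its capitals are the 3 positions of Foxa2 run G. The third listed start of Foxa2 and the RefSeq promoters of Foxa1 were not placed, and the exons, introns and starts under the runs of Foxa1 and Shh were not analysed here.

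All 3 genes were more methylated in iPSC-DA neurons than in the other libraries over the 8 tested runs. The pooled methylation level, the methylated calls as a percentage of all calls, was 3.92% in iPSCs, 12.6% in NESTIN-GFP precursors, 41.0% in iPSC-DA and 4.48% in mdDA neurons. At Foxa1 the 4 values were 4.75%, 21.4%, 45.2% and 5.81%. At Foxa2 they were 3.59%, 11.6%, 42.8% and 3.89%, and at Shh 3.75%, 8.80%, 35.2% and 4.55%. Each gene thus had iPSCs and mdDA neurons at the bottom, precursors between and iPSC-DA neurons at the top. Across all 15205 runs of the genome, the median levels were 4.02%, 8.20%, 7.33% and 4.95% in the same order of libraries. In iPSC-DA neurons the lowest of the 8 runs stood at 33.7%, and the upper quartile of all runs was 36.4%.

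**Figure D1:**
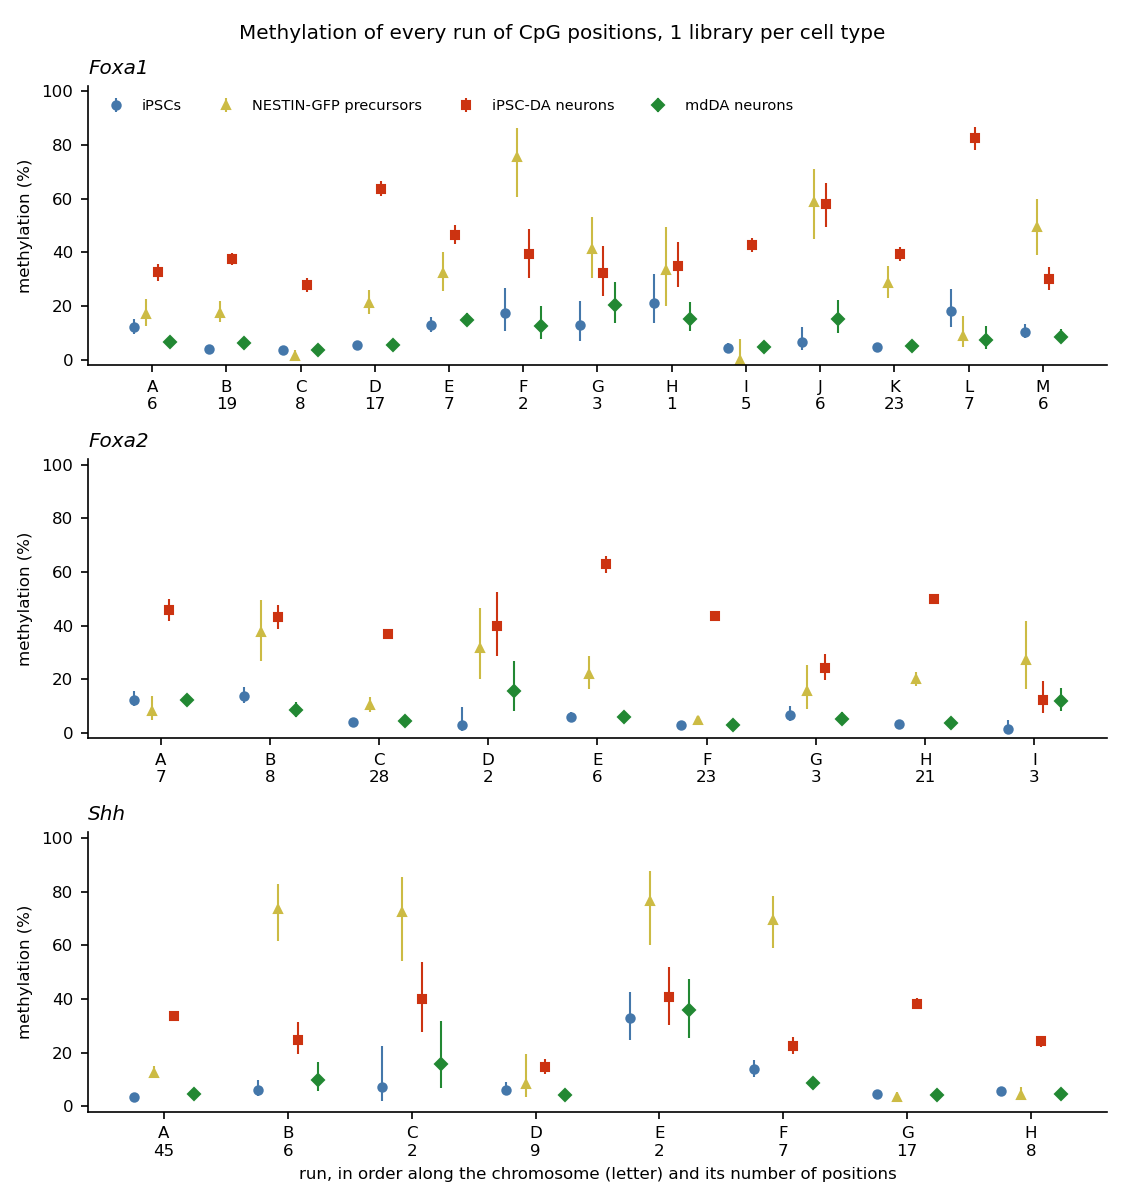
Methylation level (y axis, percent) of all 30 runs at Foxa1, Foxa2 and Shh in the 4 libraries, with runs in order along the chromosome and their number of positions under each letter. Error bars are 95% Wilson intervals for counting error in 1 library. In all 8 runs of at least 10 positions the iPSC-DA value lies above the other 3, while several short runs have the precursors highest, among them Shh runs B, C, E and F.

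The comparison of the dopaminergic libraries asked how far neurons made in culture resemble their embryonic counterparts at these genes. A run was called when Fisher's exact test on its pooled calls gave a Benjamini-Hochberg adjusted p under 0.05 over all runs of the genome and the levels differed by at least 20 percentage points. All 8 runs were called higher in iPSC-DA neurons than in mdDA neurons. Over the genome 27.6% of runs were called in that direction and 0.243% in the other. The differences in the 8 runs were 29.1 to 58.2 percentage points with a median of 34.0, beside a median of 0.802 over all runs. The largest adjusted p of the 8 by the exact test was 2.76e-96. The test sets 1 library against another, calls on the same read are linked and PCR copies were not told apart, so these p-values are too small, and the Wilson intervals given here cover counting error only.

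**Figure D2:**
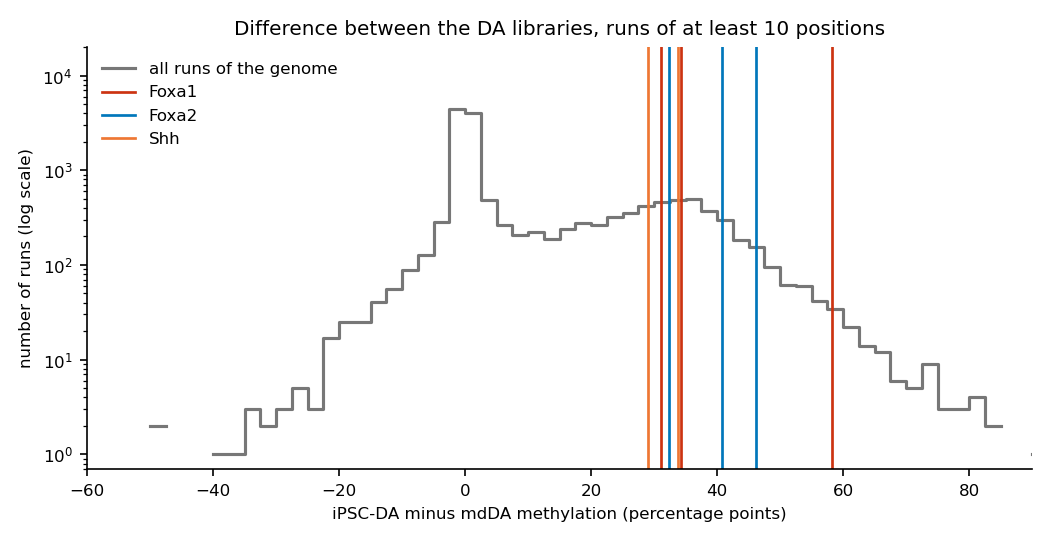
Number of runs in the genome (y axis, log scale) by their difference in methylation between iPSC-DA and mdDA neurons (x axis, percentage points), with the 8 runs of Foxa1, Foxa2 and Shh as vertical lines. Most runs lie near 0 and a broad shoulder lies to the right, in which the 8 lines fall between 29.1 and 58.2 points.

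Foxa2 had 3 tested runs. Run F (chr2:147871887-147872012, 23 positions) begins 693 bp and ends 818 bp downstream of the outer start and reaches into the far end of the upstream sequence of the inner start. Its level was 2.95% (95% Wilson interval 2.35 to 3.70) in iPSCs, 4.87% (3.72 to 6.34) in precursors, 43.8% (42.2 to 45.4) in iPSC-DA and 3.02% (2.46 to 3.70) in mdDA neurons. Only iPSC-DA neurons stood apart by more than 20 points, 40.8 above mdDA neurons and 38.9 above precursors. The 15 positions of the first printed sequence read in all libraries lie 203 to 245 bp upstream of the inner start and had 1.51%, 3.54%, 42.4% and 1.18%. No position nearer to that start was read in all 4 libraries.

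Foxa2 run H (chr2:147874655-147874767, 21 positions) lies 1950 to 2062 bp upstream of the outer start. It was at 3.31% (2.64 to 4.14) in iPSCs, 20.1% (17.6 to 22.9) in precursors, 50.1% (48.2 to 51.9) in iPSC-DA and 3.90% (3.24 to 4.69) in mdDA neurons. All 21 of its positions were higher in precursors than in iPSCs, but the difference of 16.8 points was under the threshold for a call. Run C (chr2:147870209-147870531, 28 positions) lies 2174 to 2496 bp downstream of the outer start, inside the gene by its RefSeq length. Its levels were 4.27%, 10.4%, 36.9% and 4.45%. The iPSC-DA excess over mdDA neurons was 46.2 points in run H, upstream of the gene, 40.8 in run F and 32.4 in run C. Whether these excesses differ from each other was not tested.

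The 6 shorter runs of Foxa2 varied more. Run E, 1566 to 1640 bp downstream of the outer start, was at 62.9% (59.7 to 66.0) in iPSC-DA neurons, 21.9% in precursors and 5.97% in both iPSCs and mdDA neurons. Run G, with the 3 positions 37 to 73 bp upstream of the outer start, was at 6.84%, 15.6%, 24.3% and 5.20%. Among the Foxa2 runs, only run I had a lower iPSC-DA level than run G. Run I, 2177 to 2215 bp upstream, gave 12.2% (7.39 to 19.4) in iPSC-DA and 11.9% (8.27 to 16.9) in mdDA neurons, with precursors at 27.3% and iPSCs at 1.39%. The dopaminergic libraries overlapped in their intervals there, although run H, with the widest gap of the tested Foxa2 runs, lies next to it. Runs A, B and D had 45.9%, 43.1% and 40% in iPSC-DA neurons and 12.2%, 8.45% and 15.5% in mdDA neurons.

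Foxa1 had 3 tested runs as well. Run D (chr12:58643345-58643670, 17 positions) had the widest gap of the 8 tested runs. It was at 5.64% (4.42 to 7.18) in iPSCs, 21.2% (17 to 26.1) in precursors, 63.7% (60.9 to 66.4) in iPSC-DA and 5.48% (4.38 to 6.84) in mdDA neurons. The difference of 58.2 points between the dopaminergic libraries was larger than in 99.3% of the runs of the genome, with an adjusted p by the exact test of 1.66e-229. Run B (chr12:58639697-58639919, 19 positions) gave 4.05%, 17.5%, 37.4% and 6.38%. Run K (chr12:58646737-58646931, 23 positions) gave 4.82%, 28.6%, 39.5% and 5.25%. Run K was the only tested run in which precursors were called higher than iPSCs, and no run was called when gaps were limited to 50 bp or strands were merged.

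Of the 10 shorter Foxa1 runs, run L reached 82.8% (78.0 to 86.7) in iPSC-DA neurons, against 18.2% in iPSCs, 9.00% in precursors and 7.38% (4.17 to 12.7) in mdDA neurons. It had the highest iPSC-DA level of all 30 runs. Run F was the reverse, with 75.6% (60.7 to 86.2) in precursors and 39.3% (30.5 to 48.7) in iPSC-DA neurons, over 41 and 107 calls. In run I none of 45 calls in precursors was methylated, with an upper Wilson bound of 7.87%. These are 9 calls at each of 5 positions within a few bases of each other, and 0 of 9 reads allows up to 33.3%, while iPSC-DA neurons had 42.8% (40.1 to 45.6). Precursors and iPSC-DA neurons therefore did not keep a fixed order within this one gene. In runs J and H their intervals overlapped, with 58.8% and 57.9% in run J and 33.3% and 35.0% in run H. In mdDA neurons the 10 shorter runs ranged from 3.62% in run C to 20.4% in run G.

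Shh, which encodes the secreted ligand, had 2 tested runs. Run A (chr5:28784649-28785107, 45 positions) was at 3.49% (2.96 to 4.10) in iPSCs, 12.6% (10.5 to 15) in precursors, 33.7% (32.3 to 35.1) in iPSC-DA and 4.63% (4.08 to 5.25) in mdDA neurons. Run G (chr5:28791271-28791406, 17 positions) was at 4.45% (3.52 to 5.61), 3.37% (2.17 to 5.20), 38.1% (36.1 to 40.2) and 4.36% (3.57 to 5.33). In run G precursors lay 1.08 points below iPSCs, a difference within counting error (adjusted p = 0.371, exact test). The iPSC-DA excess over precursors was 34.7 points in run G and 21.1 points in run A, and both were called.

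Between those runs the Shh window held short runs in which precursors were the most methylated library. Precursors had 73.4% (61.5 to 82.7) in run B, 72.4% (54.3 to 85.3) in run C, 76.5% (60 to 87.6) in run E and 69.5% (58.9 to 78.4) in run F. These rest on 64, 29, 34 and 82 calls. In iPSC-DA neurons the same runs had 24.9%, 40%, 40.8% and 22.5%. The iPSC-DA minus precursor difference was -48.6 points in run B, -32.4 in run C, -35.7 in run E and -47.1 in run F. The intervals of these libraries overlapped in none of the 4, but they treat linked calls as separate and are too narrow. In run C their near ends were 54.3% and 53.8%. The precursor calls of run E were 17 at each of 2 positions, and those of run B 10 or 11 at each of 6. Overlap by reads was not tested. In mdDA neurons runs B, C, E and F had 9.84%, 15.6%, 35.7% and 8.55%. Run E was the exception to low methylation in iPSCs and mdDA neurons, at 33% (24.6 to 42.7) and 35.7% (25.5 to 47.4). These levels came from chr5:28789572, with 60% in iPSCs and 65.7% in mdDA neurons. The other position of run E, chr5:28789556, had 6% and 5.71%. In iPSC-DA neurons these positions had 63.2% and 18.4%. In runs D and H the dopaminergic libraries had 14.48% against 4.26% and 24.1% against 4.66%. Precursors had 8.33% in run D and 4.18% in run H, below iPSC-DA neurons as in the longer runs, with overlapping intervals in run D. Pooled over its 6 shorter runs, Shh had 31.9% in precursors and 22.8% in iPSC-DA neurons, the opposite order to its 2 longer runs. This pooled order came from runs B, C, E and F.

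At single positions, all 193 positions of the tested runs stood higher in iPSC-DA neurons than in either mdDA neurons or iPSCs. Over all 307 positions 300 stood above mdDA neurons and 302 above iPSCs. The gain was mostly partial. In iPSC-DA neurons 251 positions lay between 20% and 80%, 44 below 20% and 12 above 80%, and the last were 10 positions of Foxa1 and 2 of Shh. In mdDA neurons 273 positions were below 20%, 34 lay between and none was above 80%. The median position was at 37.7% in iPSC-DA neurons, 10.7% in precursors, 1.37% in iPSCs and 1.16% in mdDA neurons.

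**Figure D3:**
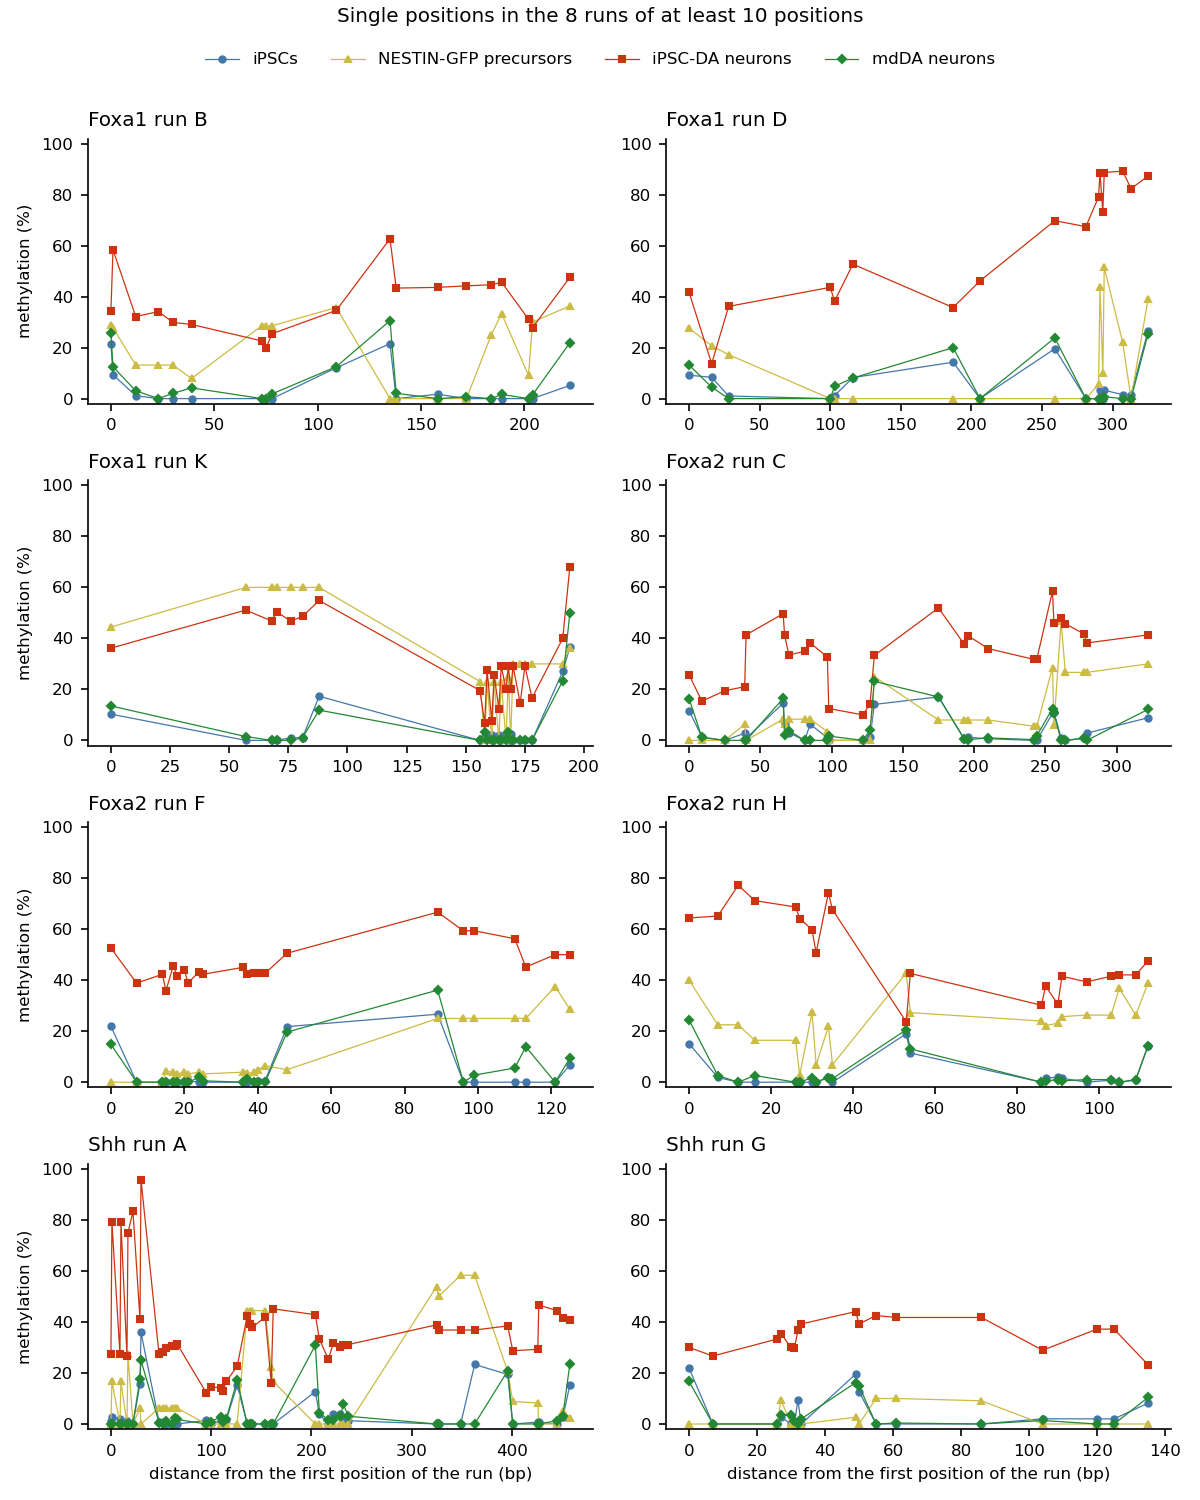
Methylation level (y axis, percent) of every position in the 8 tested runs by distance from the first position of the run (x axis, bp), with 1 line per library. The iPSC-DA line lies above the iPSC and mdDA lines at every position, steps up along Foxa1 run D and down along Foxa2 run H, and the iPSC and mdDA lines rise together at a few positions.

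Levels changed in steps along several runs. In Foxa1 run D, iPSC-DA positions ranged from 13.7% to 89.2%, with the high values at one end. In Shh run A they ranged from 12.3% to 95.8%, and in Foxa2 run F only from 35.9% to 66.7%. Positions on one read share its calls, and RRBS reads begin at fixed MspI sites. Whether the steps follow the borders of read stacks was not tested. Neighbouring bases, which are in the main the strands of 1 CpG and are covered by separate reads, gave 39 pairs. Their median absolute difference was 2.08 points in iPSCs, 11.9 in precursors, 9.47 in iPSC-DA and 1.10 in mdDA neurons. In iPSC-DA neurons 10 pairs differed by at least 20 points, 4 of them in Shh run A, and in mdDA neurons 1 did. The widest pair, chr5:28784678-28784679 in Shh run A, had 41.1% of 141 calls on the first base and 95.8% of 24 calls on the second in iPSC-DA neurons. In mdDA neurons it had 17.8% of 191 and 25% of 36.

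The low levels of iPSCs and mdDA neurons rested on few positions. In the 8 tested runs the median position was between 0% and 2% in iPSCs and between 0% and 1.87% in mdDA neurons, while the highest position of a run reached 36.5% in iPSCs and 50% in mdDA neurons, both in Foxa1 run K. Over all runs, 56 positions were at or above 15% in iPSCs and 58 in mdDA neurons, and 44 of them were the same positions. Of these 44, precursors were also at or above 15% at 26, and 26 were the first or last position of their run, as were 59 of all 307 positions.

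In the comparison of mdDA neurons with iPSCs none of the 8 runs was called, where 6.47% of all runs were called higher and 0.289% lower. The differences were -0.158 to 2.33 points with a median of 0.306, beside a median of 0.871 over all runs. Foxa1 run B (2.33 points, adjusted p = 0.0125) and Shh run A (1.14 points, adjusted p = 0.0288) passed the exact test but were far under the 20 points of a call. For the other 6 runs the smallest adjusted p was 0.436. Neither the pluripotent cells nor the embryonic neurons thus carried more than a few percent of methylated calls in any tested run of the 3 genes.

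In iPSC-DA neurons all 8 runs were called higher than in iPSCs, beside 33.4% of all runs called higher and 0.0921% lower, with differences of 30.2 to 58.1 points. The median was 34.2 points in the 8 runs and 2.43 over all runs. Precursors lay between these libraries at most runs. Against iPSCs, 7 of the 8 runs were higher in precursors, by a median of 11.3 points beside 4.09 over all runs, but the 1 called run was Foxa1 run K (23.8 points, adjusted p = 1.88e-23, exact test), where 18.3% of all runs were called. Run K rests on 210 calls in precursors, 9.13 per position. Its highest precursor values, from chr12:58646794 to chr12:58646825, were 60% of 5 calls at each position. Calls on the same read are linked, so its adjusted p is too small. Precursors were called higher than mdDA neurons in the same run alone, by 23.3 points, beside 12.2% of all runs called higher and 0.414% lower.

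From precursors to iPSC-DA neurons 6 of the 8 runs were called higher and none lower, beside 16.1% and 4.68% of all runs. The median difference was 28.2 points, against 2.16 over all runs. The runs without a call were both in Foxa1. Run B differed by 19.9 points, just under the threshold, and run K by 10.9. In run K this difference fell to 1.66 points with a minimum of 10 calls, 6.55 with a minimum of 1 and 0.966 as an unweighted mean over positions, and its iPSC-DA excess over mdDA neurons was 21.8 points instead of 34.2 with a minimum of 10 calls. Over the same stretch the 3 Foxa2 runs differed by 26.5 to 38.9 points. By the pooled levels of the tested runs, Foxa1 had 21.4% in precursors and 45.2% in iPSC-DA neurons, while Shh had 8.80% and 35.2%. Depth was lowest in precursors, with a median of 16 calls per position in the windows against 84 in iPSCs, 87 in iPSC-DA and 95 in mdDA neurons. The 4 libraries held 31419979 calls in precursors and 68545752 to 79648099 in the others.

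Genes of the pathway were followed through their promoters, from 3 lists that also include Foxa1, Foxa2 and Shh themselves. RefSeq promoter sequences of 300 bases were placed on the covered positions as for Foxa2, and 5347 promoters of 4873 genes had at least 5 positions. Among these, 17.3% were called higher in iPSC-DA than in mdDA neurons and 0.112% lower, with a median difference of 0.337 points. Of 18 hedgehog pathway genes, 4 could be tested and 1 was called higher. Ihh, which encodes Indian hedgehog, a relative of SHH, was at 5.19%, 12.5%, 39.9% and 6.13% in iPSCs, precursors, iPSC-DA neurons and mdDA neurons. Ptch1, the receptor that binds hedgehog ligands, was at 3.80%, 2.49%, 4.91% and 3.91%. Gas1, a co-receptor, had 6.25% in iPSC-DA and 8.10% in mdDA neurons, and Kif7, a kinesin of the primary cilium, 7.56% and 7.49%. All 3 uncalled promoters were below 10% in all 4 libraries, and a count of 1 in 4 is near the share over all promoters. The median difference of the 4 was 0.535 points.

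**Figure D4:**
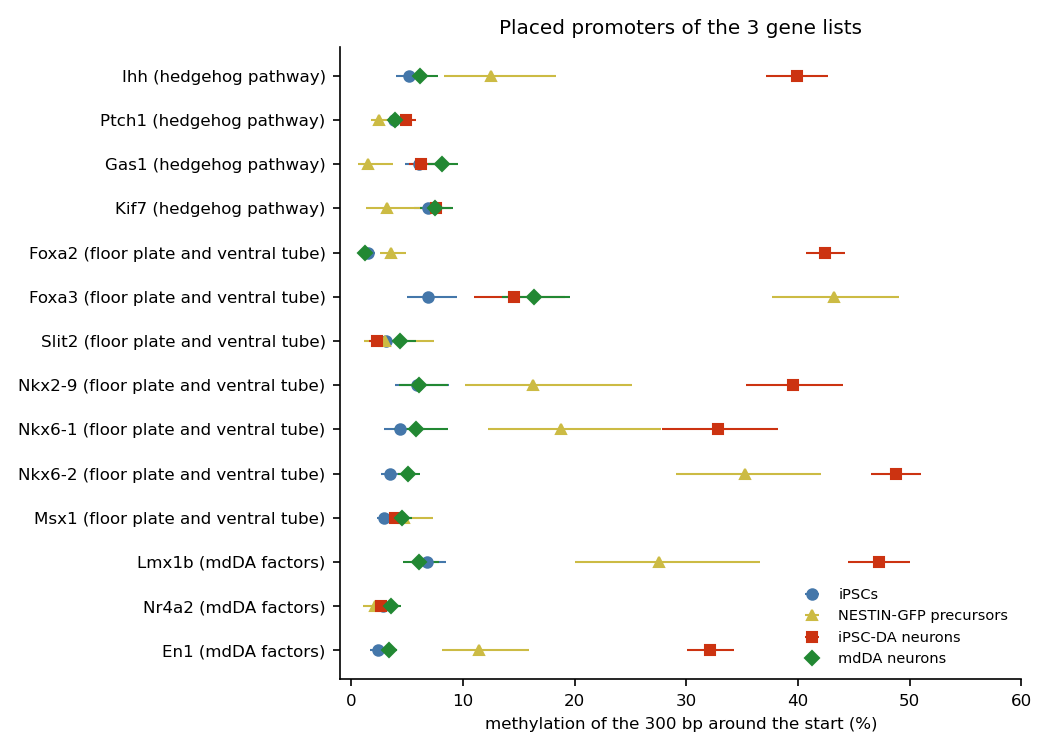
Methylation level (x axis, percent) of each placed promoter of the hedgehog pathway, floor plate and ventral tube, and mdDA factor lists in the 4 libraries, with 95% Wilson intervals for counting error as bars. The promoters of Ihh, Foxa2, Nkx2-9, Nkx6-1, Nkx6-2, Lmx1b and En1 lie above 30% in iPSC-DA neurons and below 7% in iPSCs and mdDA neurons, and Foxa3 is highest in precursors. Foxa2 is shown for its inner start only.

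Of 17 genes of the floor plate and ventral neural tube, 7 could be tested. Of these, 4 were called higher in iPSC-DA than in mdDA neurons, Foxa2 itself among them, beside 17.3% of all promoters. For Foxa2 this is the inner start, read only at 15 positions 203 to 245 bp upstream, which are positions of run F. The outer start had only the 3 positions of run G, too few for a test, at 24.3% in iPSC-DA and 5.20% in mdDA neurons. The other called promoters were those of homeobox genes of ventral progenitors. Nkx6-2 was at 3.42% in iPSCs, 35.3% in precursors, 48.8% in iPSC-DA and 5.06% in mdDA neurons. Nkx2-9 was at 5.85%, 16.3%, 39.6% and 6.06%, and Nkx6-1 at 4.38%, 18.8%, 32.8% and 5.75%. Not called were Foxa3, the third member of the FOXA family, Slit2, a guidance molecule of the ventral midline, and Msx1, a homeobox gene of midbrain dopaminergic progenitors. Foxa3 was at 6.88%, 43.3%, 14.6% and 16.3%, so that precursors stood above the other libraries. Slit2 had 2.30% in iPSC-DA and 4.39% in mdDA neurons, and Msx1 3.88% and 4.55%. The median difference of the 7, Foxa2 included, was 27.0 points. Foxa2 repeats values given above, so the count of 4 and this median are not separate from its own result. A median without Foxa2 was not analysed here.

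Of 7 transcription factor genes of mdDA neurons, 3 could be tested. Of these, 2 were called higher in iPSC-DA than in mdDA neurons, beside 17.3% of all promoters. Lmx1b was at 6.78%, 27.5%, 47.2% and 6.04%, and En1 at 2.39%, 11.4%, 32.1% and 3.32%. Nr4a2, which encodes the nuclear receptor NURR1 needed for the dopaminergic transmitter phenotype, was at 2.82%, 2.08%, 2.64% and 3.58%. The median difference of the 3 was 28.8 points. In the remaining comparisons the lists split as follows. Precursors were called higher than iPSCs at 2 floor plate promoters, Foxa3 and Nkx6-2, and at Lmx1b of the mdDA factors, where 15.1% of all promoters were called higher and 0.0187% lower. The same 3 promoters were called higher in precursors than in mdDA neurons, beside 12.8% of all promoters, and 0.337% were lower. From precursors to iPSC-DA neurons Ihh, Foxa2, Nkx2-9 and En1 were called higher, by 27.4, 38.9, 23.3 and 20.7 points, beside 10.1% of all promoters. Foxa3 was the only one called lower in that step, with a difference of -28.7 points, beside 7.99% of all promoters. Against iPSCs, 18.9% of all promoters were called higher in iPSC-DA neurons. Those called numbered 1 in the hedgehog pathway, 4 in the floor plate list, Foxa2 included, and 2 in the mdDA factors. None of the 14 tested promoters was called between mdDA neurons and iPSCs, where 1.42% of all promoters were higher and 0.0748% lower. The tested promoters are a minority of each list, and those without enough covered positions were not analysed here.

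The promoters whose 4 levels were closest to the pooled levels of each gene were sought among 3830 promoters with at least 10 positions, by Euclidean distance. For Foxa2 the nearest was Tmem30b at 0.744 points, with 2.89%, 11.8%, 42.8% and 3.99%, followed by Gm33408, Kcnk15 and Fzd9, a receptor of WNT ligands. For Shh the nearest were Atf7ip and Gm44140, which share their positions, at 0.869 points, then Gprin1, Myrip and Flt1. For Foxa1 they were Nkain2 at 1.86 points, C130021I20Rik, Ccdc158, Pitpnm3 and Zfp804a. With 4 libraries a close distance is a description of these levels alone.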

How the data were processed

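Genomic DNA was digested with MspI and sequenced after bisulfite conversion (RRBS). The authors trimmed reads with Trim Galore 0.3.5 and aligned them with Bismark 0.10.1, per the submitters' processing notes, which also name FastQC. The genome build is not given in the sources used here, and the positions fit the chromosome lengths of mm9 (NCBIM37). The deposited files list, for each CpG cytosine and strand, the counts of methylated and unmethylated calls and the percent methylated. No molecular identifiers are described, so PCR copies were not told apart from separate molecules.

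Levels were recomputed from the deposited counts as 100 times methylated calls over all calls, at positions with at least 5 calls in all 4 libraries. Positions under 100 bp apart formed runs, and runs of at least 10 positions were compared between each pair of libraries by Fisher's exact test (two-sided, scipy 1.17.1) with Benjamini-Hochberg adjustment over all runs. A call needed levels that differed by 20 percentage points or more and an adjusted p under 0.05. Intervals are 95% Wilson intervals. Groups followed the labels, with 1 library each.

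RefSeq promoters (GRCm38.p6, 250 bases before to 50 after a start) were placed by the spacing of their CpGs, with at least 10 covered positions on CpGs, 0 off them and a margin of 5 over the second-best place. Of 32851 sequences 6218 were placed. For 98.9% of these, the shift from the RefSeq place was within 50000 bp of the median shift of up to 5 neighbours on each side. This is a coarse check of the placing. Promoters with at least 5 positions were tested as runs were. For the 3 lists the text names every promoter called between the dopaminergic libraries (at most 8 by size) and the 4 with the smallest difference, and the 5 promoters nearest in level to each gene. Both steps were tested on simulated data. The genes, windows and lists were chosen with earlier results of these data known. Alternatives changed the minimum of calls, the gap, the run length, the threshold, the scale, the depth, the strands and the libraries required.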

Additional observations from a re-analysis of the deposited data

How the results depend on the processing

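The counts of called runs and promoters were recomputed under 216 combinations of a comparison and an alternative, and 184 stayed within 1.5 times the main count. The 184 include counts of 0 that stayed at 0, so they say little about the counts above 0. In the main analysis the count was 0 for runs called lower in every comparison. It was also 0 for runs called higher in mdDA neurons than in iPSCs. The differences of the 8 runs kept their side of the threshold in 239 of 240 recomputations, and 7 uncalled differences between mdDA neurons and iPSCs, none over 0.434 points in the main analysis, changed sign. Foxa1 run D fell from 15.5 to 8.18 points (precursors minus iPSCs) and from 15.7 to 8.05 (minus mdDA neurons) as an unweighted mean. In the one recomputation that crossed the threshold, the unweighted mean over positions put Foxa2 run H past the threshold, with 20.6 points between precursors and iPSCs. Of the runs at Foxa1, Foxa2 and Shh, the number called higher in iPSC-DA than in mdDA neurons was 13 of 14 with a minimum of 1 call, 18 of 22 with runs of at least 5 positions and 13 of 16 with coverage asked of only the compared libraries. Against iPSCs it was 13, 17 and 13. Against precursors 11 were called higher and 2 lower with runs of at least 5 positions, and 3 higher at a threshold of 30 points. The single run called higher in precursors than in iPSCs became 2 with a minimum of 1 call, 0 with gaps under 50 bp, 2 with gaps under 200 bp, 6 with runs of at least 5 positions, 0 with strands merged, 4 at 10 points, 0 at 30 points and 5 on the logit scale. Precursors against mdDA neurons gave the same numbers, 2, 0, 2, 6, 0, 4, 0 and 5. The windows held 14 runs with a minimum of 1 call and 22 with runs of at least 5 positions, against 8 in the main analysis. Shares of all runs called under the alternatives were not analysed here, so these counts describe the 3 windows only. Among the floor plate promoters, a minimum of 10 calls left 1 called in precursors over iPSCs and 1 over mdDA neurons (2 each in the main analysis), and 0 called lower in iPSC-DA neurons than in precursors (1). The whole run around a promoter gave 4 called higher in iPSC-DA neurons than in precursors for that list (2), and for the mdDA factors 2 (1), with 0 called in precursors over iPSCs (1) and 0 over mdDA neurons (1). The cause of these shifts was not tested. No paired analysis was possible because each cell type has 1 library. Depth limits the precursors most, whose short runs rest on as few as 29 calls.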

Other observations

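Positions with at least 5 calls in both dopaminergic libraries, but not in all 4, were not counted in the runs described above, though they may lie between positions of a run. In the Foxa1 window 61 such positions had a pooled methylation level of 36.0% in iPSC-DA and 6.95% in mdDA neurons. In the Foxa2 window 41 positions had 43.7% and 11.7%, and in the Shh window 33 positions had 49.2% and 15.2%. At all 3 genes the iPSC-DA level was the higher one, and the mdDA level was above that of the tested runs of the same gene. Over all runs, mdDA neurons had 7.13% at Foxa1, above the 6.95% here. At Foxa2 and Shh they had 4.93% and 5.09%, below the values here. These values were not tested.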
